A study of Mus musculus with 12 samples.

Results

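Bone-marrow precursor B cells of mice heterozygous for both Cd72 and Pax5 (Cd72+/-;Pax5+/-) were compared with pro-B cells of wild-type mice (WT), using 4 arrays of each of these groups. The series holds 12 arrays in all, and the 4 others are of mice heterozygous for Pax5 alone (Pax5+/-). All mice were 1 month old and were housed free of specific pathogens. RNA was hybridised to Affymetrix Mouse Gene ST arrays, which read each gene as 1 or more transcript clusters, and the values are log2 signals. The tissue label calls every sample bone-marrow pro-B cells, while the titles give pro-B cells for WT and preleukemic precursor B-cells for either mutant. As to strain, sex, the construction of the alleles, the marker used to purify the cells and the number of animals, the sources used here give no value. Whether arrays of a group come from separate animals is not stated, so the p-values measure the spread between arrays, which may be technical. Members are the 22283 autosomal clusters with a gene symbol, of 28944 clusters on the array, and 20874 of them carry 1 symbol and name 19106 genes. The series title names loss of Pax5 and Cd72 together, and the comparison asks what sets precursor cells lacking 1 copy of each apart from normal ones.

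Pax5 is the transcription factor that commits progenitors to the B lineage: it switches on B-cell genes and keeps genes of other lineages silent. Cd72 is a membrane lectin of B cells whose cytoplasmic tail carries an inhibitory motif that recruits a tyrosine phosphatase and dampens signals of the B-cell receptor. Pro-B cells rearrange the immunoglobulin heavy chain, assemble the pre-B-cell receptor and depend on interleukin 7 and stromal contact in the marrow.

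Array values below are log2 signals in the order of replicates 1 to 4. Each change is Cd72+/-;Pax5+/- minus WT, fitted with limma on all 12 arrays and adjusted by Benjamini-Hochberg over the 23410 clusters with a symbol, and a cluster was called at an adjusted p under 0.05. A gene with several clusters is given by its brightest cluster.

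Cells lacking 1 copy of both genes had a lower Cd72 signal. Pax5 (transcript cluster 10512669) read 11.40, 11.72, 11.49 and 11.66 in WT and 11.31, 11.22, 11.18 and 11.11 in Cd72+/-;Pax5+/-. The groups stood apart (two-sided exact permutation p = 0.0286, which 4 against 4 arrays cannot go below), and the change of -0.36 (SE 0.114, adjusted p = 0.0781) did not pass the test across all clusters. Cd72 (cluster 10512470) read 9.29, 8.49, 9.39 and 8.43 in WT and 7.52, 7.34, 7.52 and 7.67 in Cd72+/-;Pax5+/-, a change of -1.39 (SE 0.192, adjusted p = 0.000492, 2.62-fold lower). All 4 double-heterozygous arrays lay below all 4 WT arrays (exact permutation p = 0.0286). WT was itself split, with replicates 1 and 3 close to a log2 unit above replicates 2 and 4. Pax5+/- read 10.03 to 10.27 for Cd72, above both other groups, and the difference of Cd72+/-;Pax5+/- from it was -2.67 (adjusted p = 1.41e-06). The Cd72 call against WT ended when the most alike arrays of each group were averaged in pairs (adjusted p = 0.137) and when the mean of stromal markers was a covariate (change -0.99, adjusted p = 0.0567). The sources used here do not say which exons the alleles lack, so the signals are a partial check of the labels.

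The same split of WT recurred in many genes. The closest arrays of WT were replicates 1 and 3, and 2 and 4, which differed with SDs of 0.113 and 0.123 and in no cluster by over 2-fold, whereas the other WT pairs differed with SDs of 0.261 to 0.27 and in 216 to 242 clusters by over 2-fold. Pax5+/- was split too: replicates 1 and 3, and 2 and 4, differed with SDs of 0.179 and 0.13 and in 12 and 5 clusters by over 2-fold. The other Pax5+/- pairs differed with SDs of 0.192 to 0.276 and in 50 to 220 clusters by over 2-fold. The Cd72+/-;Pax5+/- arrays differed with SDs of 0.125 to 0.187. Sex-linked transcripts also divided the groups. Xist read 11.75 to 11.90 in Cd72+/-;Pax5+/-, 5.09 to 5.52 in WT and 5.00 to 5.38 in Pax5+/-. The Y-linked Uty read 4.88 to 5.19, 8.85 to 9.74 and 9.26 to 9.52 in the same order. Genotype and sex therefore cannot be told apart, either against WT or against Pax5+/-. Genes of chromosomes X and Y were left out. Markers of pro-B cells averaged 11.80 and 11.83 on the first WT pair (replicates 1 and 3), 11.05 and 11.02 on the second (2 and 4), and 11.32 to 11.47 in Cd72+/-;Pax5+/-. The 14 stromal and endothelial markers averaged 7.97 and 7.96 on the first WT pair, 7.51 and 7.53 on the second, and 6.91 to 7.04 in Cd72+/-;Pax5+/-, without overlap. In bulk RNA fewer cells of a type and less RNA per cell cannot be told apart.

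**Figure D1:**
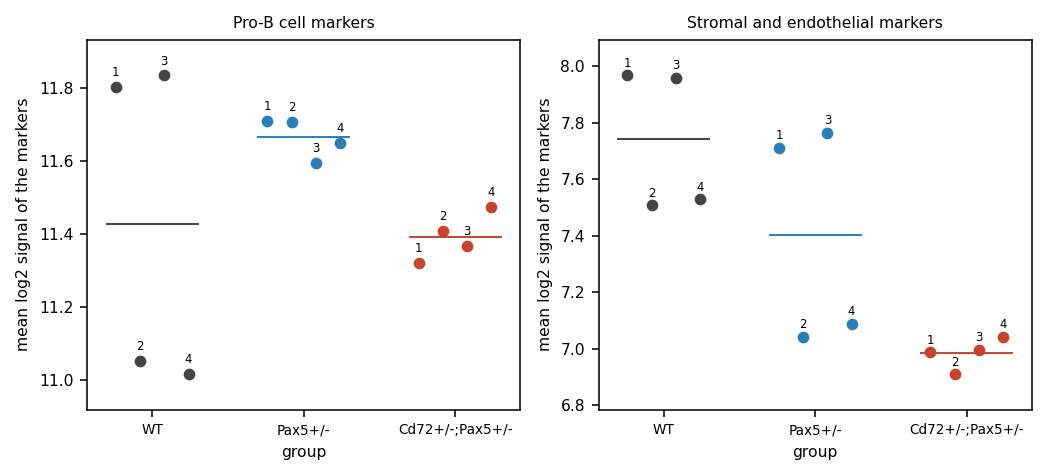
Mean log2 signal of the pro-B cell markers (left) and of the stromal and endothelial markers (right) on each of the 12 arrays. Points are arrays with their replicate number, and lines are group means. WT replicates 1 and 3 stand above WT replicates 2 and 4 in both panels, and the Cd72+/-;Pax5+/- arrays lie between those WT pairs for pro-B markers and below all WT arrays for stromal markers.

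Across the members, 1747 clusters were called (7.84%), 932 higher (4.18%) and 815 lower (3.66%) in Cd72+/-;Pax5+/-. By gene, 748 of 19106 were higher (3.92%) and 718 lower (3.76%), and the median change over all genes was -0.0025. Most changes were small: the median absolute change of the called clusters was 0.42 on the log2 scale, 179 called clusters changed by over 2-fold (86 higher, 93 lower), and 13 rose and 22 fell by over 4-fold. The study's own threshold of p under 0.05 and over 2-fold, counted here with an unadjusted p, held for 196 clusters (0.88%), 86 higher (0.386%) and 110 lower (0.494%). The arrays of the groups did not overlap in 3335 clusters (15.0%), 1722 higher (7.73%) and 1613 lower (7.24%). With the closest pairs averaged to 1 value each, 278 clusters were called (1.25%), all of them among the 1747 and in the same direction, and 121 of the 179 changed by over 2-fold kept their call. The shares to set beside each list below are 3.92% of all genes higher, 3.76% lower and 7.67% called. With the closest pairs averaged the share is 1.25% of clusters. Without WT replicates 1 and 3 there were 2547 calls (11.4%), and without WT replicates 2 and 4 there were 3512 (15.8%). Of these, 1274 and 1387 were shared with the 1747. Against Pax5+/-, 2206 clusters were called (9.9%), 1007 higher (4.52%) and 1199 lower (5.38%), with 889 genes higher (4.65%) and 1039 lower (5.44%).

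**Figure D2:**
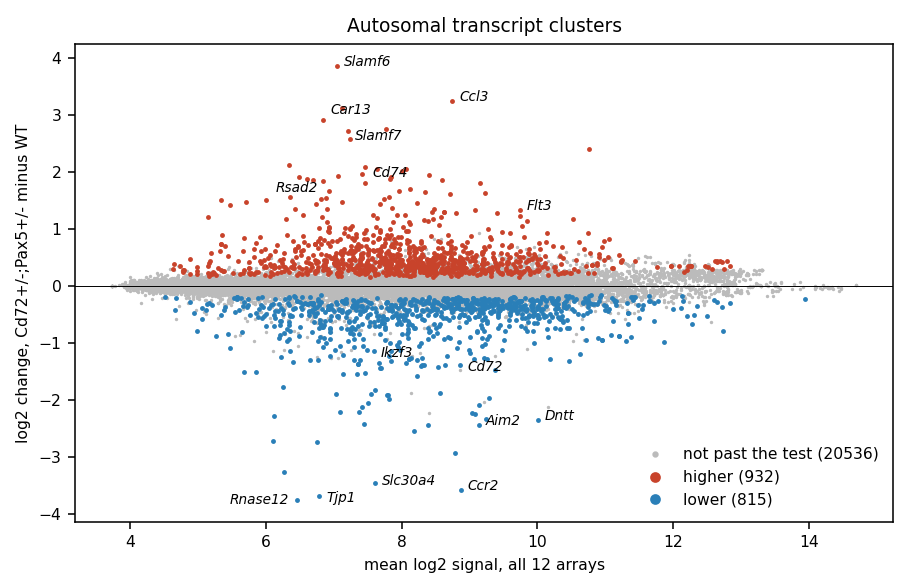
Log2 change of Cd72+/-;Pax5+/- minus WT against the mean log2 signal over all 12 arrays for the 22283 autosomal clusters with a symbol. Red points are the 932 called higher, blue points the 815 called lower and grey points those not past the test. Slamf6 and Ccl3 stand at the top and Rnase12, Tjp1 and Ccr2 at the bottom.

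The largest autosomal rise was that of Slamf6, a Slam-family receptor of lymphocytes that engages itself on neighbouring cells. It read 5.95, 5.50, 6.10 and 5.79 in WT and 9.53, 9.63, 9.71 and 9.92 in Cd72+/-;Pax5+/-, 14.6-fold higher. Slamf7, another self-binding receptor of the family, rose by 2.71 (SE 0.151, adjusted p = 1.75e-07) from 6.52, 6.02, 6.79 and 6.08 to 9.13, 9.08, 9.03 and 9.01. Both were also dim in Pax5+/- (5.55 to 5.67 and 5.92 to 6.36), and Cd72+/-;Pax5+/- exceeded that group by 4.10 and 2.86 (adjusted p = 2.63e-10 and 8.38e-08). Car13, a cytosolic carbonic anhydrase, read 5.91, 6.05, 5.92 and 5.83 in WT, 8.91, 8.67, 8.83 and 8.97 in Cd72+/-;Pax5+/- and 5.67 to 5.94 in Pax5+/-. For these 3 genes the double heterozygote stood apart from both other groups with no overlap.

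For 9 other leading rises Pax5+/- also lay above WT on every array. Ccl3, an inflammatory chemokine that Pax5 represses, read 7.09, 6.37, 7.24 and 6.19 in WT, 9.95, 10.01, 9.97 and 9.95 in Cd72+/-;Pax5+/- and 9.36 to 9.67 in Pax5+/-, with WT replicates 2 and 4 the lowest. It rose 9.5-fold against WT (adjusted p = 3.18e-07), and its difference from Pax5+/- was 0.42 (95% interval 0.00 to 0.84, adjusted p = 0.221). Hook1, a linker of cargo to microtubules, read 6.17, 6.06, 5.92 and 5.86 against 8.68, 8.65, 8.80 and 8.90, with 8.47 to 8.63 in Pax5+/-. For both genes the double-heterozygous arrays lay just above those of Pax5+/- without overlap. Cibar1 (change 2.57), the Mas-related receptor Mrgpra1 (2.40) and the collagenase Mmp13 (2.06) also did not pass against Pax5+/-, where the differences were -0.04, -0.51 and -0.09. The zinc-finger gene Zfp507 rose by 2.04 against WT and was lower than in Pax5+/- (-0.34, adjusted p = 0.00841). Ifi208, Parp12, an interferon-inducible ADP-ribosyltransferase, and Enah, a regulator of actin filaments, rose by 2.12, 2.09 and 2.02 and exceeded Pax5+/- by 1.45, 1.41 and 0.99, with Pax5+/- between the other groups.

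The largest falls included those of a chemokine receptor, a zinc transporter, a TGF-beta ligand and its co-receptor. Rnase12, of the ribonuclease A family, read 8.95, 9.08, 8.95 and 8.85 in WT and 5.09, 5.31, 5.11 and 5.31 in Cd72+/-;Pax5+/-, 13.5-fold lower (adjusted p = 1.13e-11). Its level in Pax5+/- was 5.09 to 5.31, within the range of the double heterozygote. Tjp1, a scaffold of tight junctions, read 8.63, 9.37, 8.63 and 9.36 against 5.42, 5.12, 5.31 and 5.41, and Eng, an accessory receptor for TGF-beta, read 8.87, 9.08, 8.91 and 9.19 against 6.44, 6.69, 6.74 and 6.48. Neither passed against Pax5+/- (differences -0.74 and -0.14). For these 3 genes every mutant array of both genotypes lay below every WT array.

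Ccr2, a chemokine receptor best known on monocytes and silenced by Pax5, read 10.56, 9.36, 10.62 and 9.27 in WT, 6.30, 6.42, 6.42 and 6.36 in Cd72+/-;Pax5+/- and 10.10 to 10.45 in Pax5+/-. Slc30a4, a zinc exporter, read 8.67, 8.49, 8.76 and 8.58 in WT, 5.09, 5.14, 4.92 and 5.55 in Cd72+/-;Pax5+/- and 8.91 to 9.15 in Pax5+/-. Tgfb3, a TGF-beta ligand, read 9.09, 9.51, 9.11 and 9.64 in WT, 6.39, 6.43, 6.62 and 6.23 in Cd72+/-;Pax5+/- and 10.43 to 10.76 in Pax5+/-. The double heterozygote was the single low group for all 3, 11.9-fold, 10.9-fold and 7.57-fold below WT, and it differed from Pax5+/- by -3.92, -3.83 and -4.17 (adjusted p = 8.38e-07, 4.88e-10 and 7.44e-10). Tasor, a subunit of the silencing complex HUSH, changed by -2.73, the zinc-finger gene Zfp709 by -3.26 and 2610008E11Rik by -2.43, and all 3 were also lower than in Pax5+/-. Ogn, a small leucine-rich proteoglycan of connective tissue, read 10.04, 8.33, 10.11 and 8.43 in WT and 6.46, 6.10, 6.89 and 7.26 in Cd72+/-;Pax5+/- (adjusted p = 0.0443). Its high arrays, WT replicates 1 and 3, are those with the highest stromal markers, and without them it did not pass (adjusted p = 0.232). Of the 24 leading genes, 13 also differed from Pax5+/- in the same direction, 1 (Zfp507) in the opposite direction, and 10 did not pass. With the closest pairs averaged 19 of the 24 kept their call, and Mmp13, Zfp709, Ifi202b, Ogn and 2610008E11Rik lost it.

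**Figure D3:**
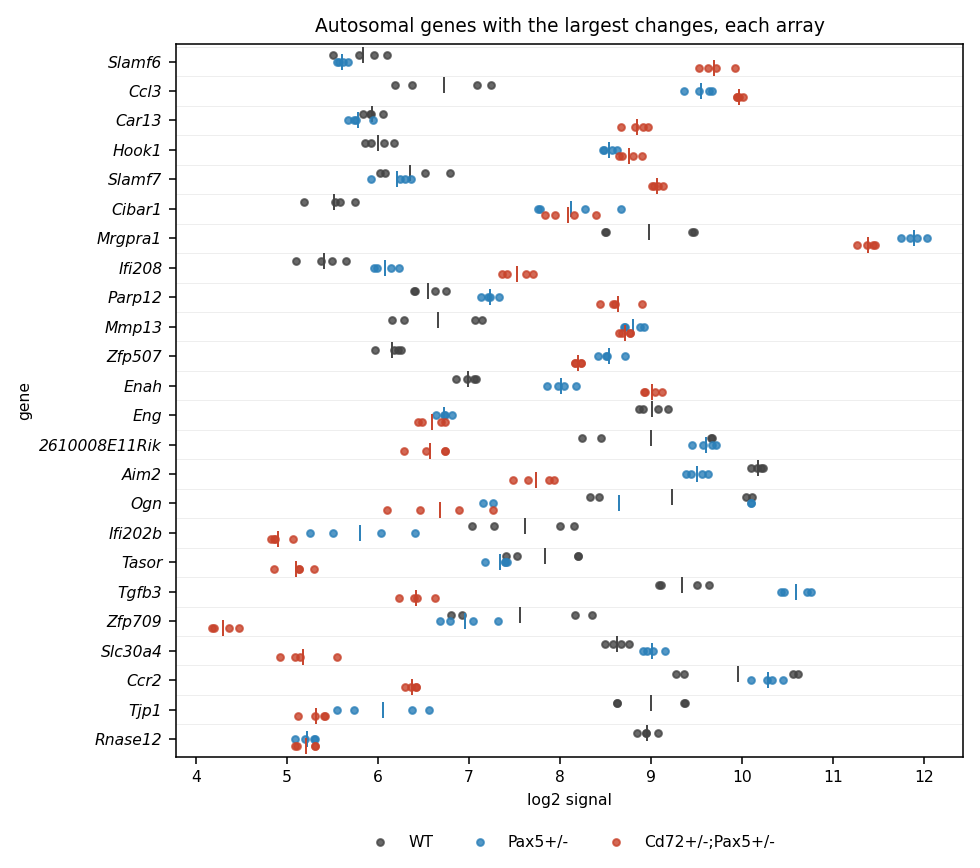
Log2 signal on each array of the 12 autosomal genes with the largest rises (top) and the 12 with the largest falls (bottom) among called genes without overlap between Cd72+/-;Pax5+/- and WT. Points are arrays, 4 per group, and ticks are group means. In Slamf6, Car13, Slamf7, Ccr2, Slc30a4 and Tgfb3 the Cd72+/-;Pax5+/- arrays stand apart from both other groups, and in Rnase12, Hook1, Cibar1 and Eng they lie close to the Pax5+/- arrays.

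Interferon-stimulated effectors, the antiviral proteins that cells make when interferon receptors signal, were higher in part. Of 35 measured, 13 rose (37.1%, against 3.92% of all genes), none fell and 22 did not pass, and their median change was 0.35. Their mean signal was 7.74, 7.55, 7.79 and 7.54 in WT, 8.01, 8.05, 8.03 and 8.16 in Cd72+/-;Pax5+/- and 7.60 to 7.66 in Pax5+/-, so the double heterozygote stood above both groups on every array. Rsad2 (viperin), which blocks the replication of many viruses, read 6.37, 6.24, 6.51 and 6.40 in WT and 7.95, 7.88, 7.82 and 8.06 in Cd72+/-;Pax5+/-, 2.92-fold higher (log2 SE 0.0665, adjusted p = 1.4e-08). Ifit1, which binds foreign RNA caps, read 5.08, 4.94, 5.03 and 4.92 against 6.14, 6.17, 6.59 and 6.72, and Oas2, an oligoadenylate synthetase, read 7.45, 6.95, 7.61 and 6.80 against 8.61, 8.62, 8.52 and 8.82. Neither gene's groups overlapped, and WT replicates 2 and 4 were the lowest for both. Rtp4, Mx2 and Ifit3 rose by 1.24, 0.47 and 0.45. Adar, the RNA editing enzyme with an interferon-driven isoform, rose by 0.35. The brightest members that did not pass were Ifitm1 at 0.39, Ifitm2 at 0.53 and Dtx3l at -0.09. Another cluster of Ifitm2 was called higher (0.605, limma adjusted p = 0.04945), and a further one, at 0.46, was not.

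Against Pax5+/-, 19 effectors were higher and 1 lower (4.65% and 5.44% of all genes), with a median of 0.38. Rsad2, Ifit1 and Oas2 exceeded Pax5+/- by 1.56, 1.38 and 1.46 (adjusted p = 1.18e-08, 1.15e-05 and 0.000302). Against WT the number of risen effectors was 18, with 1 lower, without WT replicates 1 and 3, and it was 10 without WT replicates 2 and 4. With the closest pairs averaged it was 2 of 35, where 1.25% of all clusters were called, and Rsad2 kept its call (adjusted p = 0.00213). Sex-linked transcripts divided the same groups, and their part in these changes was not tested. The stromal mean did not overlap between Cd72+/-;Pax5+/- and WT, so a fit with it as covariate cannot separate stromal content from genotype. In Pax5+/- that mean was 7.71, 7.04, 7.77 and 7.09.

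Interferon sensors and signalling factors moved both ways, with 5 of 23 higher, 4 lower and a median of 0.03 (39.1% called, against 7.67% of all genes). Averaging the closest pairs left 1 rise (Cgas) and no fall, and taking them as a random block gave 5 rises and 2 falls. The higher genes were Irf7, the factor that amplifies type I interferon (7.48, 7.09, 7.47 and 7.19 in WT, 8.32, 8.17, 8.07 and 8.04 in Cd72+/-;Pax5+/-), Irf9, the DNA-binding subunit of ISGF3 (0.76), the RNA sensors Ifih1 (0.70) and Dhx58 (0.69), and the DNA sensor Cgas (0.61). All 5 also exceeded Pax5+/-, by 0.61, 0.70, 1.32, 0.40 and 0.45. The lower genes included both chains of the type I interferon receptor. Ifnar1 read 10.84, 10.39, 10.82 and 10.44 in WT and 10.10, 9.93, 9.92 and 10.01 in Cd72+/-;Pax5+/- (change -0.63, adjusted p = 0.00284), and Ifnar2 changed by -0.26 (adjusted p = 0.0364). Their neighbour Il10rb, a receptor chain shared by interleukin 10 and type III interferons, fell by 0.43, so that 3 adjacent genes of chromosome 16 fell together, and all 3 were also lower than in Pax5+/-. None of the 3 kept its call against WT with the closest pairs averaged (adjusted p from 0.243 to 0.414). The factor Irf1 and the adaptor Mavs, named after their values were seen, fell by 0.60 and 0.24. Of the other bright members, Sting1 and Jak1 changed by -0.05 and -0.03 and did not pass. No member passed among 8 interferon-inducible GTPases (median -0.16), where Gbp7 and Gbp3 changed by -0.35 and -0.27. At an unadjusted p under 0.05 there were 4 of those 8, and the share of all genes at that threshold was not counted.

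The Aim2 and Ifi200 family, a cluster of related nucleic-acid sensors on chromosome 1, had the largest share of calls of all lists (80.0%): 5 of 10 measured genes rose, 3 fell and 2 did not pass. Ifi208 read 5.10, 5.37, 5.49 and 5.65 in WT and 7.70, 7.63, 7.42 and 7.36 in Cd72+/-;Pax5+/-, Ifi206 read 4.99, 4.74, 4.86 and 4.82 and 6.19, 6.25, 6.22 and 6.80, and Ifi213 read 6.08, 6.09, 6.36 and 5.35 and 7.11, 7.54, 7.30 and 7.35. None of these overlapped, and Ifi206 replicate 4 of Cd72+/-;Pax5+/- stood above the 3 others. Ifi207 and Ifi203 rose by 0.58 and 0.58. Aim2, which forms an inflammasome on cytosolic DNA, read 10.23, 10.10, 10.21 and 10.17 in WT and 7.48, 7.65, 7.88 and 7.93 in Cd72+/-;Pax5+/-, 5.44-fold lower (adjusted p = 3.88e-09), with 9.39 to 9.63 in Pax5+/-. Ifi202b, which lacks the domain that couples Aim2 to its adaptor and can restrain it, read 7.03, 8.15, 7.27 and 8.00 and 5.06, 4.86, 4.82 and 4.87. Ifi214, named after its value was seen, read 9.26, 6.25, 9.47 and 6.48 in WT and 5.40, 5.36, 5.73 and 6.12 in Cd72+/-;Pax5+/- (adjusted p = 0.0491), with WT replicates 2 and 4 close to the double heterozygote. Against Pax5+/- the differences were 1.45, 1.54 and 1.34 for the risen genes, -1.77 for Aim2 and -2.95 for Ifi214, all past the test, while Ifi203 (0.14) and Ifi202b (-0.90) were not. The genes of this family are close copies, and a signal may include RNA of a neighbouring copy. With the closest pairs averaged, 3 rises and 1 fall of the family remained.

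**Figure D4:**
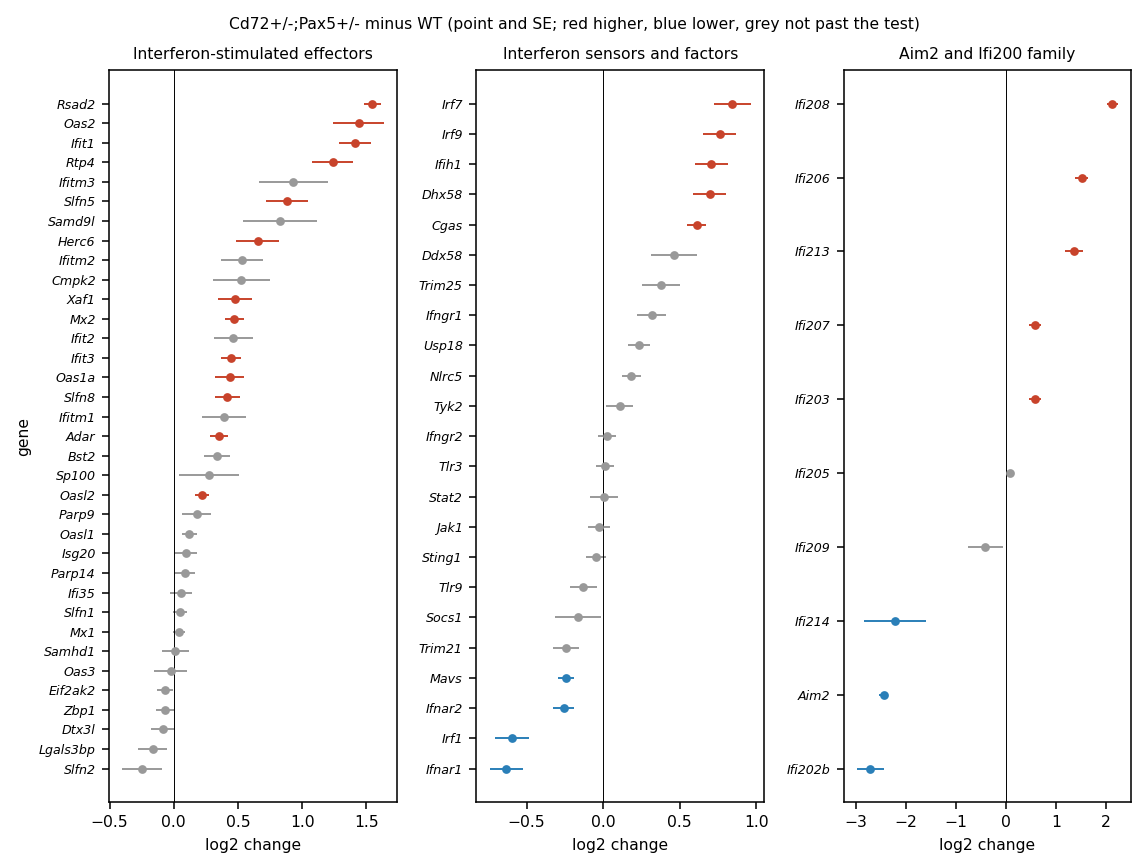
Log2 change of Cd72+/-;Pax5+/- minus WT for 35 interferon-stimulated effectors, 23 interferon sensors and factors and 10 genes of the Aim2 and Ifi200 family. Points are fitted changes and bars are their SE, in red for genes called higher, blue for genes called lower and grey for genes not past the test. The effectors reach up to 1.55 with no call below 0, and the Aim2 and Ifi200 family spans -2.71 to 2.12.

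The stretches before the gene starts were read for the interferon-stimulated response element, the site of ISGF3 and of interferon regulatory factors, because effectors of the list moved together. The letters GAAANNGAAA were searched on both strands in the 250 bases before each start in RefSeq promoters of GRCm38.p6, allowing overlapping matches. Of 14959 autosomal genes with a promoter to search, 511 carried them (3.42%), as did 28 of 587 genes called higher (4.77%) and 19 of 551 called lower (3.45%). Among effectors with a promoter they were present in 6 of 10 called higher and 3 of 18 not called. They were present in none of 4 interferon sensors and factors called higher, none of 4 called lower and 2 of 11 not called, and in none of 3 MHC class II genes called higher and 1 of 6 not called. In the Aim2 and Ifi200 family they were present in all 5 genes called higher, in 1 of 3 called lower (Ifi214) and in 1 of 2 not called (Ifi205). A match is a description of letters and no evidence of binding. The stretches around the matches are shown for the risen Ifi200 genes, for the fallen Ifi214 and for 3 effectors, on the strand of the gene, 5′ to 3′, with the matches in capitals (a match on the other strand reads TTTCNNTTTC):
Ifi208 (chr1:173673572-173673651, + strand): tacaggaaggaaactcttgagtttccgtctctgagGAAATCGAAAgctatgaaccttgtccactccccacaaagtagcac
Ifi213 (chr1:173599301-173599380, - strand): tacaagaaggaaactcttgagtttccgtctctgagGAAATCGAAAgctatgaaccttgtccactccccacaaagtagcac
Ifi206 (chr1:173491319-173491393, - strand): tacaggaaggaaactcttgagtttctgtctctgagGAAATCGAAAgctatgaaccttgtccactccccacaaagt
Ifi207 (chr1:173741810-173741885, - strand): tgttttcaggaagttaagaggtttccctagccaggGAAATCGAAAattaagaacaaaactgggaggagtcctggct
Ifi203 (chr1:173942493-173942562, - strand): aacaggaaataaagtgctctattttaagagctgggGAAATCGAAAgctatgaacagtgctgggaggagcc
Ifi214 (chr1:173535992-173536071, - strand): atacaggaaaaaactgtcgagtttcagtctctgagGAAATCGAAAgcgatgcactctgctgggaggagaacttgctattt
Ifit1 (chr19:34640750-34640848, + strand): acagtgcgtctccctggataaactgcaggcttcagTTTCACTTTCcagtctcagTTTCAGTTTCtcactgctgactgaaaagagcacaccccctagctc
Ifit3 (chr19:34583338-34583451, + strand): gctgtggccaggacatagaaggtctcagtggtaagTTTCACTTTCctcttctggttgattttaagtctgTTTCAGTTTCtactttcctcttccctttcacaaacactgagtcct
Rsad2 (chr12:26456528-26456607, - strand): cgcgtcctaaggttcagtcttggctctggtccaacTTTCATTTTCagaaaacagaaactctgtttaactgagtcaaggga
The 5 risen Ifi200 genes and Ifi214 share the same 10 letters, GAAATCGAAA, and compared from their first letter the stretch of Ifi208 matches that of Ifi213 in 79 of 80 letters and that of Ifi206 in 74 of 75. Compared in the same way, it matches that of Ifi207 in 34 of 76, of Ifi203 in 41 of 70 and of Ifi214 in 45 of 80. The same letters thus stood before Ifi208, which changed by 2.12, and before Ifi214, which changed by -2.21. Ifit1 and Ifit3 carry 2 matches each on the opposite strand, and Rsad2 carries 1.

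The MHC class II pathway, which loads peptides for CD4 T cells and is normally induced as B cells mature, was higher in part. Of 14 genes 5 rose and none fell (35.7% called, against 7.67% of all genes, median 0.11). Cd74, the invariant chain, read 6.74, 7.27, 6.65 and 7.28 in WT and 8.85, 8.78, 8.67 and 8.86 in Cd72+/-;Pax5+/-, 3.49-fold higher (log2 SE 0.128, adjusted p = 1.74e-06). Ciita, the master activator of these genes, read 6.59, 6.78, 6.69 and 6.62 against 7.36, 7.48, 7.34 and 7.28, and H2-Aa read 5.15, 5.04, 5.10 and 5.01 against 5.81, 5.98, 5.60 and 5.88. In each of the 3 all Cd72+/-;Pax5+/- arrays lay above all WT arrays, and for Cd74 WT replicates 2 and 4 were the higher ones. H2-Aa was dim, with a mean over all arrays below 5.88, the 30th percentile of cluster means. With dim clusters filtered out, 4 of 11 genes of the list rose and none fell. H2-DMa, which edits the bound peptide, rose by 0.56, and H2-Eb1 rose by 0.39. All 5 also exceeded Pax5+/-, by 2.17 (Cd74), 0.55 (Ciita), 0.69 (H2-Aa), 0.62 (H2-DMa) and 0.46 (H2-Eb1), and 4 of the 5 kept their call against WT with the closest pairs averaged. The brightest members without a call were H2-Ob (-0.13), Rfx5 (0.10) and Ctss (0.07).

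MHC class I genes changed less evenly, with 2 of 15 higher, 1 lower and a median of -0.08, against 3.92% of all genes higher and 3.76% lower. None of the 3 calls remained with the closest pairs averaged. Tap1 and Tap2 encode the subunits of the peptide transporter into the endoplasmic reticulum. Tap1 rose by 0.70 (10.06, 9.58, 9.97 and 9.60 in WT, 10.51, 10.52, 10.51 and 10.49 in Cd72+/-;Pax5+/-) and Tap2 fell by 0.64 (9.67, 9.42, 9.65 and 9.47 in WT, 8.95, 8.87, 8.95 and 8.87 in Cd72+/-;Pax5+/-), each without overlap. Against Pax5+/- the difference of Tap2 passed (-0.41) and that of Tap1 did not (0.13). The class Ib gene H2-M3 rose by 0.36, and B2m, the light chain, changed by 0.46 without passing. Nlrc5, the activator of class I genes, is read by 19 clusters, of which 17 rose, none fell and 2, the brightest among them, did not pass (median change 0.495). None of the 19 passed against Pax5+/-, with a median difference of -0.005.

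Of 10 Slam-family receptors and adaptors, 4 rose and none fell (against 3.92% and 3.76% of all genes, median 0.11). Beside Slamf6 and Slamf7, Cd48, the ligand of Cd244, read 8.40, 7.84, 8.44 and 7.86 in WT and 8.72, 8.90, 9.13 and 9.37 in Cd72+/-;Pax5+/- (adjusted p = 0.0224), and Slamf9 rose by 0.36. Cd48 exceeded Pax5+/- by 2.64. Cd84, Ly9 and Cd244a did not pass against WT (-0.45, 0.12 and 0.05), and Cd84 exceeded Pax5+/- by 2.17 (adjusted p = 2.89e-05). Of the 4 calls, those of Slamf6 and Slamf7 remained with the closest pairs averaged (adjusted p = 0.00175 and 0.0122).

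Of 17 chemokines and receptors, the inflammatory ligands Ccl3, Ccl4, Ccl5 and Cxcl10 rose. The receptors Ccr2 and Cxcr5 and the stromal ligand Cxcl12 fell. The share called was 41.2%, against 7.67% of all genes, with 3 rises and 1 fall when the closest pairs were averaged. Ccl4 read 6.15, 6.17, 6.02 and 6.10 in WT and 6.83, 7.00, 6.79 and 6.95 in Cd72+/-;Pax5+/-, Ccl5 read 7.09, 7.13, 7.11 and 7.13 and 7.71, 7.87, 7.68 and 7.96, and Cxcl10, a classical interferon target, read 5.67, 5.69, 5.63 and 5.59 and 6.01, 6.10, 6.13 and 6.39. These 3 had no overlap and each exceeded Pax5+/- as well (0.70, 0.74 and 0.46). Cxcr5, the receptor that brings mature B cells into follicles, read 6.30, 7.66, 6.02 and 7.16 and 5.31, 5.37, 5.19 and 5.21. Cxcl12, which holds precursor B cells in the marrow and is made by stroma, fell by 1.92 and was the highest in WT replicates 1 and 3, those with the highest stromal markers. Cxcl12 is itself 1 of the 14 stromal and endothelial markers, so a fit with their mean as covariate cannot separate stromal content from this fall. Cxcr4, the receptor for Cxcl12, changed by 0.29 and Ccl9 by 0.68, both without passing, and Ccl9 read 10.79, 8.01, 10.86 and 8.08 in WT.

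Among 24 genes of the TNF family and NF-kB signalling, 2 rose and 4 fell (25.0% called, against 7.67% of all genes). With the closest pairs averaged there were 1 rise and 2 falls. Tnfsf10, the death ligand TRAIL, read 8.82, 8.18, 8.82 and 8.29 in WT and 6.47, 6.38, 6.37 and 6.69 in Cd72+/-;Pax5+/-, 4.14-fold lower, and was lower than in Pax5+/- too (-1.04). Nlrp3, the sensor of another inflammasome, fell by 0.72 and stood 1.79 below Pax5+/- on the log2 scale. Ltb and Tnfrsf1b fell by 0.44 and 0.26, and Tnfrsf18 (GITR) and Tnfsf4 rose by 0.60 and 0.23. Immediate-early genes, which respond to stimulation and to handling of cells, rose in 6 of 16 cases and fell in 1 (43.8% called, against 7.67%). Atf3 read 7.12, 7.18, 7.21 and 7.13 in WT and 8.08, 8.16, 8.02 and 8.10 in Cd72+/-;Pax5+/-, and Jun read 9.66, 9.65, 9.71 and 9.70 and 10.55, 10.47, 10.39 and 10.38. Nr4a1, which antigen-receptor signals induce in B cells, went the other way, from 8.66, 8.60, 8.68 and 8.54 to 7.76, 7.81, 7.74 and 7.59 (change -0.90, adjusted p = 2.25e-05), and was 3.88-fold below Pax5+/-. With the closest pairs averaged 1 of the 7 calls remained.

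Genes of B-cell identity did not change as a block. Of 22 factors of pro-B and pre-B identity 3 rose and 5 fell (36.4% called, against 7.67% of all genes, median -0.03). Ikzf3 (Aiolos), which rises as pre-B cells mature, read 7.85, 7.77, 7.89 and 7.86 in WT and 6.68, 6.70, 6.64 and 6.79 in Cd72+/-;Pax5+/-, 2.2-fold lower, and was 2.85-fold below Pax5+/-. Irf8 fell by 0.61, Ets1 by 0.47 and Pou2af1 by 0.30, while Irf4, which acts with Irf8 in the step to small pre-B cells, rose by 0.44 and Ebf1, the factor upstream of Pax5, by 0.25. Ikzf1, Myb and Pax5 itself were not past the test (-0.05, -0.10 and -0.36). With the closest pairs averaged 1 call of the 8 remained.

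Known targets of Pax5 moved both ways. Of 18 genes that Pax5 activates 3 rose (Slamf6, Cd22, Irf4) and 4 fell (Cd72, Ikzf3, Irf8, Id3), and of 18 that it represses 2 rose (Ccl3, Flt3) and 4 fell (Ccr2, Grap2, Itgal, Sdc4). The shares called were 38.9% and 33.3%, against 7.67% of all genes, and the medians -0.06 and 0.00. Cd72 is counted among the falls although it lacks 1 copy by genotype. It averaged 10.19 in Pax5+/- and 8.90 in WT. In either list 2 rises and 1 fall remained with the closest pairs averaged. Flt3, a cytokine receptor of early progenitors and a mutated kinase of acute leukemia, read 9.18, 8.81, 9.17 and 8.75 in WT and 10.18, 10.17, 10.29 and 10.19 in Cd72+/-;Pax5+/- (2.35-fold higher, adjusted p = 5e-06), with 9.94 to 10.18 in Pax5+/-. Its groups did not overlap against WT, and its difference from Pax5+/- was 0.16 (95% interval -0.06 to 0.37). Beside Ccr2, the repressed genes that fell were the adaptor Grap2 (-0.52), the integrin chain Itgal (-0.30) and the proteoglycan Sdc4 (-0.48). Cd33 and Notch1, also repressed by Pax5, changed by 0.01 and 0.17 and did not pass. Cd47, of the same list, was not called in its brightest cluster, while another of its clusters was called higher (0.515, limma adjusted p = 0.00194).

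Inhibitory co-receptors, the group to which Cd72 belongs, showed 1 rise and 2 falls among 20 (15.0% called, against 7.67% of all genes). Of the falls 1 is Cd72 itself, which lacks 1 copy by genotype. Cd22, a sialic-acid-binding lectin that recruits the same kind of phosphatase as Cd72, read 7.53, 7.56, 7.58 and 7.62 in WT and 8.54, 8.37, 8.43 and 8.38 in Cd72+/-;Pax5+/-, 1.81-fold higher (adjusted p = 1.16e-06), and it exceeded Pax5+/- by 0.47 (adjusted p = 0.000157). Sit1, a transmembrane adaptor that dampens receptor signals and a neighbour of Cd72 on chromosome 4, read 8.74, 8.59, 8.69 and 8.61 and 8.06, 8.09, 8.04 and 8.09. Fcgr2b, Inpp5d and Ptprc changed by 0.09, 0.02 and -0.18 without passing. Among 21 genes of B-cell receptor signalling, the kinase Fyn (0.34) and the exchange factor Rasgrp3 (0.22) rose and the kinases Blk (-0.76) and Prkcb (-0.36) fell (19.0% called). Rasgrp3 was dim, at 5.04 to 5.18 in Cd72+/-;Pax5+/-, where the 30th percentile of cluster means was 5.88. With dim clusters filtered out, 1 of 20 genes rose and 2 fell. Blk read 10.83, 9.93, 10.90 and 9.87 in WT and 9.55, 9.70, 9.57 and 9.69 in Cd72+/-;Pax5+/-, so that the double heterozygote lay close to WT replicates 2 and 4 and far from 1 and 3. No call of that list remained with the closest pairs averaged.

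The pre-B-cell receptor and the assembly of immunoglobulin genes gave 1 call in 17, a fall of Dntt, and none with the closest pairs averaged. The share of 5.88% is near the 7.67% of all genes. Dntt, the polymerase that adds nucleotides at heavy-chain junctions in pro-B cells, read 11.93, 9.76, 11.92 and 9.82 in WT and 8.29, 8.52, 8.40 and 8.85 in Cd72+/-;Pax5+/- (change -2.34, adjusted p = 0.00515). All Cd72+/-;Pax5+/- arrays lay below all WT arrays, and their mean differed by -3.41 from that of WT replicates 1 and 3 and by -1.27 from that of replicates 2 and 4. Igll1 and Vpreb1, the surrogate light chain, changed by 0.23 and 0.36, and Cd79a by -0.03, with no call. The choice of WT arrays decided this list: without WT replicates 1 and 3 there were 7 rises and 1 fall, and without WT replicates 2 and 4 no rise and 7 falls. Of all clusters 11.4% and 15.8% were called in these settings. Surface markers of precursor stages behaved alike, with 5 rises and 1 fall without WT replicates 1 and 3, and 1 rise and 7 falls without replicates 2 and 4. With all arrays Cd44, an adhesion receptor, rose by 0.77 and Il2ra, the interleukin-2 receptor chain of pre-B cells, fell by 0.57 (11.61, 11.69, 11.65 and 11.71 in WT, 11.15, 11.04, 11.09 and 11.10 in Cd72+/-;Pax5+/-). Il7r read 12.47, 11.12, 12.44 and 11.07 in WT and 12.20, 12.21, 12.24 and 12.24 in Cd72+/-;Pax5+/-, and Kit read 11.15, 10.07, 11.15 and 10.10 and 10.61, 10.68, 10.59 and 10.62, with the double heterozygote between the WT pairs in Kit and close to the upper pair in Il7r. Of 18 genes of interleukin-7, Flt3 and JAK-STAT signalling, Flt3 alone was called (5.56%).

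Among 19 genes that mark later B-cell stages, 3 rose, all of the class II pathway (Cd74, Ciita and H2-Aa), and Cd37, Cxcr5 and Ltb fell (31.6% called). The 3 rises remained with the closest pairs averaged and the falls did not. With dim clusters filtered out, H2-Aa among them, 2 of 13 genes rose and 2 fell. Of the heavy-chain constant genes on chromosome 12, Igha read 8.03, 6.92, 8.10 and 6.96 in WT and 9.28, 9.37, 9.34 and 9.43 in Cd72+/-;Pax5+/- and Ighg3 read 6.46, 6.32, 6.32 and 6.53 and 7.39, 6.95, 7.15 and 7.36, beside their neighbour Tmem121 (0.45). Ighg3 kept its call with the closest pairs averaged and Igha did not (adjusted p = 0.117). Ighm, named after its value was seen, went the other way in the brightest of its 3 clusters, by -1.43 (adjusted p = 1.87e-06), and its other clusters did not pass (0.14 and 0.23). Igha and Ighg3 did not pass against Pax5+/- (0.41 and 0.25).

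Lists of growth and survival genes ran from no call to 25.0% called, against 7.67% of all genes. None of 20 G2 and mitosis genes passed with limma (6 at an unadjusted p under 0.05), where Mki67, Top2a and Ccna2 changed by -0.12, -0.20 and -0.07. For all genes the share at an unadjusted p under 0.05 was not counted, so such counts here have no share beside them. Among 22 S-phase genes the licensing factor Cdt1 (0.39) and the transcription factor E2f1 (0.42) rose and the helicase subunit Mcm4 fell by 0.20 (13.6% called). Cdkn2a, a locus of cell-cycle inhibitors that is often deleted in B-cell acute leukemia, read 9.26, 9.32, 8.69 and 9.09 in WT and 7.81, 7.76, 7.54 and 7.73 in Cd72+/-;Pax5+/-, 2.6-fold lower (log2 SE 0.117, adjusted p = 7.82e-06), and 8.00 to 8.19 in Pax5+/- (difference -0.39, adjusted p = 0.0557). No double-heterozygous array reached the lowest WT array. In the same list of 20 inhibitors and p53 targets, Zmat3 (0.57), Pmaip1 (Noxa, 0.47), Bbc3 (Puma, 0.39) and the death receptor Tnfrsf10b (0.30) rose (25.0% called). Cdkn1b, also of that list, was not called in its brightest cluster, while another of its clusters was called higher (0.6975, limma adjusted p = 0.0161). Of 12 genes of the Bcl2 family, Pmaip1 and Bbc3 were called (16.7%). Bcl2 read 9.54, 11.55, 9.62 and 11.48 in WT and 9.61, 9.38, 9.49 and 9.32 in Cd72+/-;Pax5+/-, at the level of WT replicates 1 and 3, and did not pass. None of 20 Myc and ribosome genes passed with all arrays (0 at an unadjusted p under 0.05). Without WT replicates 1 and 3, where 11.4% of all clusters were called, 1 rose and 8 fell. Without replicates 2 and 4, where 15.8% were called, 12 rose and 1 fell. None of 19 oxidative phosphorylation genes passed (4 at an unadjusted p under 0.05, median 0.13), and of 17 glycolysis genes Pfkp and Insr rose (0.39 and 0.50) and Aldoc and Pdk1 fell (-0.32 and -0.26), 23.5% called. Of 24 drivers and suppressors of B-cell acute leukemia, Flt3 and Ebf1 rose and Cdkn2a and Cd72, which lacks 1 copy by genotype, fell (16.7%). Averaging the closest pairs left no call among S-phase and glycolysis genes, and 1 rise and 1 fall among the inhibitors and p53 targets and among the leukemia genes.

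Of 17 metallothioneins and zinc transporters 3 fell (17.6% called, against 7.67% of all genes) and none rose. With the closest pairs averaged 2 of the falls remained. Beside Slc30a4, Mt2, a metal-binding metallothionein, read 10.64, 11.09, 10.74 and 10.72 in WT and 8.38, 8.53, 8.57 and 8.82 in Cd72+/-;Pax5+/-, 4.67-fold lower, and Slc39a1, a zinc importer, fell by 0.30. Another cluster of Slc39a1 changed by -0.24 and did not pass (limma adjusted p = 0.0584). Mt2 was higher than in Pax5+/- (0.84, adjusted p = 0.0157), whereas Slc30a4 was lower. Mt1 changed by -0.58 and did not pass.

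**Figure D5:**
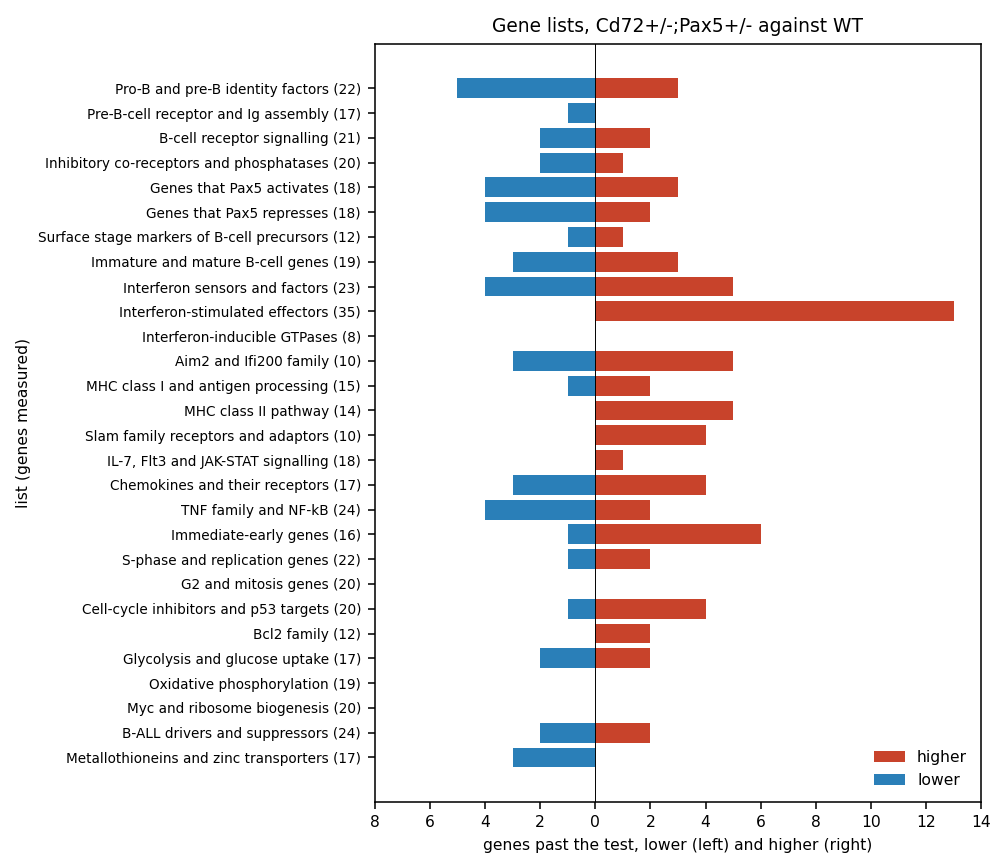
Number of genes called higher (red, right) and lower (blue, left) in Cd72+/-;Pax5+/- against WT in each of 28 pathway lists, with the number of genes measured in brackets. Interferon-stimulated effectors show 13 genes higher and none lower, and G2 and mitosis, Myc, oxidative phosphorylation and interferon-inducible GTPase lists show none either way.

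Of 11 lists of markers of other cell types 6 held calls, each at a share above the 7.67% of all genes. Of 14 stromal and endothelial markers 3 fell (Alpl, Cxcl12 and Sparc, 21.4%), none rose, and the median was -0.43. Alpl, an alkaline phosphatase, read 10.76, 11.34, 10.85 and 11.42 in WT and 9.06, 8.79, 8.77 and 8.77 in Cd72+/-;Pax5+/-, where WT replicates 2 and 4 were the higher ones, the reverse of Sparc (10.71, 9.44, 10.63 and 9.40 in WT). No marker of granulocytes (15), T cells (13), NK cells (10), megakaryocytes (7) or basophils and mast cells (10) was called with limma, and at an unadjusted p under 0.05 there were 2 T-cell markers, 1 of basophils and mast cells and 0 in the other lists. For all genes the share at that threshold was not counted. Of monocyte markers Cd68 rose by 0.36 and Ccr2 fell (13.3%), while Lyz2 read 8.75, 7.17, 8.94 and 7.23 in WT and 8.16, 8.23, 8.30 and 8.80 in Cd72+/-;Pax5+/-. Of erythroid markers Aqp1 rose by 1.25 and the transferrin receptor Tfrc fell by 0.98 (25.0%), and among those of stem cells and progenitors there was 1 rise (Flt3) and 1 fall (Meis1, -0.83), 16.7% in all. Of plasmacytoid dendritic cell markers Flt3 and Cox6a2 (0.55) rose and Irf8 fell (33.3%), and of plasma cell markers Irf4 and Slamf7 rose (18.2%). Of 15 pro-B markers Ebf1 rose and Dntt and Pou2af1 fell (against 7.67% of all genes called), with none left when the closest pairs were averaged. The list turned with the WT arrays used, to 9 rises and 1 fall without WT replicates 1 and 3 and to no rise and 7 falls without replicates 2 and 4. In these settings 11.4% and 15.8% of all clusters were called. The 4 brightest in WT, Igll1, Cd79a, Vpreb1 and Ebf1, read 11.81 or higher on every array of both groups.

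Genes beside Cd72 and Pax5 on chromosome 4 were called at a share near that of all genes. Of 71 genes from 20 before the first to 20 after the second, Rgp1, Zbtb5 and Tdrd7 rose (0.40, 0.27 and 0.37) and Sit1 fell, 5.63% against 7.67% of all genes. By chromosome the share called ran from 6.23% on chromosome 7 to 10.4% on chromosomes 14 and 17. In 12 places 3 neighbouring genes were called in the same direction. Cibar1 on chromosome 4 rose with its neighbours Tmem67 and Rbm12b2 (1.02 and 1.15), none of them past the test against Pax5+/-. Parp12 rose with Tbxas1 and Hipk2 (0.41 and 0.68) on chromosome 6, and Kbtbd6 with Kbtbd7 and Mtrf1 (1.52, 0.39 and 0.54) on chromosome 14, and all of these also exceeded Pax5+/-. On chromosome 7 the purinergic receptors P2ry2 and P2ry6 rose with Fchsd2 (1.04, 0.55 and 0.47). On chromosome 18 the protocadherins Pcdhb16, Pcdhb17 and Pcdhb18 fell by 1.53, 0.96 and 0.74, and by 3.01, 2.57 and 2.25 against Pax5+/-. Protocadherins are close copies of each other, so these 3 signals may share RNA. The other runs were Ifi208 with Ifi207 and Ifi203, Ifnar2 with Il10rb and Ifnar1, Tmem121 with Igha and Ighg3, Adar with Chrnb2 and 4632404H12Rik, Olfr433 with Olfr432 and Olfr430 (lower, by at most 0.42), Fv1 with Miip and Zfp933 (lower, Fv1 by 0.75) and Rnasek with 0610010K14Rik and the cluster of Mir195a (higher, by at most 0.37).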

How the data were processed

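Total RNA of bone-marrow pro-B cells was extracted with TRIzol, column-purified with DNase treatment, biotin-labelled and hybridised to 12 Affymetrix Mouse Gene 1.0 ST arrays, per the labels' protocols and the series' design text. Per the submitters' processing notes the arrays went through the Transcriptome Analysis Console, version 4.0.3 in the design text, and the deposited table holds log2 values per transcript cluster. The sources used here do not give the background correction, the normalization, the probe summary or the build. No second normalization was applied. The number of arrays limits the precision.

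Groups were taken from sample titles. Clusters were placed on chromosomes by matching gene identifiers to RefSeq genes of GRCm38.p6, and 91 clusters with a symbol could not be placed. Group means were fitted by limma 3.58.1 (R 4.3.3) to the 23410 clusters with a symbol on all 12 arrays, and 2 contrasts were tested: Cd72+/-;Pax5+/- against WT and against Pax5+/-. P-values were adjusted by Benjamini-Hochberg over all 23410, and a call needs an adjusted p under 0.05. The second contrast shares its Cd72+/-;Pax5+/- arrays with the first, so both are given side by side. Standard errors are moderated by empirical Bayes. Pax5 and Cd72 were also tested by exact permutation of the 8 arrays. The procedure was run on simulated data with independent noise on each array. Such data hold no closely alike pairs of arrays, so the run cannot show how those pairs affect the p-values. Figures were drawn with matplotlib 3.10.9.

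Members, gene lists and the naming rule were chosen with earlier results of these data known. Named are Pax5 and Cd72, the 12 largest rises and 12 largest falls among called genes without overlap, up to 6 called members per list with the smallest adjusted p, up to 3 brightest members not called, called neighbours of Cd72 and Pax5, and runs of 3 or more neighbouring genes called the same way. List members on chromosome X or Y, or on no cluster with that single symbol, were not analysed here.

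Alternatives were quantile normalization, a filter on dim clusters, a shift of medians, other sets of clusters tested, a trended robust prior, only the compared groups, array weights, the closest pairs of arrays averaged or as a random block, omission of each array and of each WT pair, the stromal marker mean as a covariate, and averaging of the clusters of a gene.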

Additional observations from a re-analysis of the deposited data

Results flagged for a closer look

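In 12 of 352 groups of 4 arrays checked, 1 array stood far from the 3 others, where chance alone gives about 5%. In Cd72+/-;Pax5+/-, Ifi206 read 6.80 in replicate 4 against 6.19 to 6.25, Alpl 9.06 in replicate 1 against 8.77 to 8.79, and P2ry2 8.03 in replicate 1 against 7.82 to 7.85. Ifit3 read 6.67 in replicate 1 against 6.53 to 6.55, Flt3 10.29 in replicate 3 against 10.17 to 10.19, and Insr 8.53 in replicate 3 against 8.41 to 8.43. Gbp7 read 11.19 in replicate 2 against 11.11 to 11.12, Rasgrp3 5.04 in replicate 2 against 5.16 to 5.18, and Hipk2 10.68 in replicate 4 against 10.78. In WT, Slamf9 read 6.63 in replicate 1 against 6.77 to 6.79, Cd68 7.58 in replicate 1 against 7.73 to 7.76, and Cd44 8.08 in replicate 3 against 7.99 to 8.00. Outside the autosomal genes, Xist differed between Cd72+/-;Pax5+/- and WT by 6.58 on the log2 scale.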

How the results depend on the processing

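No paired analysis was possible because the sample titles number the arrays from 1 to 12 and share no replicate number between groups. In no alternative did a called cluster turn to a call in the opposite direction. The 1747 calls against WT became 278 (161 higher, 117 lower) with the closest pairs averaged, 987 (520 and 467) with the pairs as a random block, and 2678 (1339 lower) with array weights. Against Pax5+/- the corresponding counts were 405 and 1336 with the pairs averaged or as a block. Averaging leaves 2 values per group, so fewer calls follow by construction. With arrays or WT pairs left out, calls against WT ran from 1205 to 3512, higher from 656 to 1775, lower from 549 to 1737, and against Pax5+/- from 1597 to 3633. Without WT replicates 1 and 3 there were 3585 calls against Pax5+/-. Each WT pair is nearly uniform, so leaving out the other adds calls by construction. Over the same omissions the study's threshold gave 80 to 121 clusters higher and 97 to 163 lower. Pax5 ran from -0.485 to -0.24 and passed without WT replicates 1 and 3 (-0.485, adjusted p = 0.0357), with only both compared groups (-0.3625, adjusted p = 0.0202) and with the stromal covariate (-0.811, adjusted p = 0.000467). Cd72 ran from -1.83 to -0.9475, and lost its call with the pairs averaged (-1.39, adjusted p = 0.137) and with the stromal covariate (-0.991, adjusted p = 0.0567). The stromal mean does not overlap between the groups, so the covariate takes up part of the group difference. With it there were 1742 calls, of which 727 were among the 1747, and 158 clusters past the study's threshold, higher, against 86 without it. It turned Ogn to 0.635, Sparc to 0.424, Cdt1 to -0.0311 and Rgp1 to -0.0173, none past the test. Genes not called with all arrays took a call of the other sign when 1 WT pair was left out: without replicates 1 and 3 H2-Ob at 0.52 and Myb at 0.225, and without replicates 2 and 4 Ccl9 at -0.7125, Cd33 at -0.3575, Il7r at -0.2325 and Kit at -0.525. Of 139 named calls, 51 held with the closest pairs averaged, 89 with the stromal covariate and 109 with the random block. When single arrays were left out 116 to 129 held.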
